A study of Homo sapiens with 4 samples.

Results

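PVT1 and PCAT1 are long non-coding RNA (lncRNA) genes on either side of MYC on human chromosome 8. Their transcripts were assigned through the annotation, as every transcript of the deposited table whose identifier, without its version number, belonged to PVT1 or PCAT1 in GENCODE release 44 mapped to GRCh37. The rule found 28 of 19835 transcripts, 20 of PVT1 and 8 of PCAT1, in 2 of the 11465 genes to which identifiers could be matched. Ribosome-depleted RNA was sequenced, and its reads placed on non-coding transcripts, from untreated HUH7, a long-established line of human liver cancer (hepatocellular carcinoma) cells, kept in medium with 10% fetal bovine serum. The 4 libraries form a single group with no control arm, named replicates 1 to 4, and the study used them to pick expressed lncRNAs for a knockdown screen. Their titles also carry a letter, L for replicates 1 and 3 and H for replicates 2 and 4, which the submitters describe as in-house naming rather than a variable they analysed, and all 4 were pooled here. The labels do not state whether each library had its own culture, and p-values here reflect the spread among libraries, possibly technical, and no more.

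PVT1 is transcribed in the same direction as MYC and begins downstream of it. It is known as a site of variant translocations in Burkitt lymphoma, is often co-amplified with MYC in tumours, hosts a group of microRNAs and gives rise to a circular RNA from one of its exons, while its promoter can compete with that of MYC for the same enhancers. PCAT1, prostate cancer associated transcript 1, lies in the gene-poor region upstream of MYC that holds many enhancers and cancer risk variants, and was first described in prostate cancer, where it is known to act on DNA repair and on MYC.

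Levels are FPKM, fragments scaled by transcript length and by all fragments placed on non-coding transcripts in the library. Gene levels are sums over transcripts, and errors are SD over n = 4 libraries unless another error is named. Summed FPKM lay between 1755972 and 1965229 per library, and the steps between low values put the depth at about 4500000 to 5030000 fragments per library. Of 7 lncRNAs listed as markers of liver and liver tumour cells, 6 were measured, and HULC (693 ± 64.8 FPKM) and LINC00261 (377 ± 27.7 FPKM) were above the 5 FPKM at which the study set expression, as was LINC02027 (15.7 ± 2.31 FPKM). FAM99A (0.24 ± 0.29 FPKM) and FAM99B (0.41 ± 0.08 FPKM), RNAs of normal liver, were below it. H19 (5.93 ± 2.38 FPKM) was called on neither side of it. Of 6 host genes and lncRNAs of blood, muscle, stroma and brain, 1 was above, CARMN, a smooth muscle lncRNA (22.3 ± 1.31 FPKM). MIR155HG of activated blood cells was at 0 in all libraries, and MIR142HG (0.035 FPKM), LINC00599 (0.08 FPKM), MIR133A1HG (1.97 FPKM) and MIAT (3.16 FPKM) were the other 4 by mean level.

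Both genes were expressed well above 5 FPKM. PVT1 (ENSG00000249859, chr8:128806772-129199347, plus strand) had 286, 271, 292 and 234 FPKM in replicates 1 to 4, a mean of 271 ± 26.2 FPKM. PCAT1 (ENSG00000253438, chr8:127568568-128431295, plus strand) had 106, 115, 105 and 101 FPKM, a mean of 107 ± 5.89 FPKM. Every library lay far above the threshold for both genes, and the ranges of PVT1 and PCAT1 did not overlap. On the log2(FPKM + 1) scale PVT1 lay 5.50 above the threshold (SE 0.08, adjusted p = 7.12e-17) and PCAT1 4.17 above it (SE 0.08, adjusted p = 1.11e-15) in the one-sample test of limma with Benjamini-Hochberg adjustment over 7124 genes. In the same test 50.3% of genes were called above 5 FPKM, so being above it was common. PVT1 ranked 350 of 7124 genes by mean level and PCAT1 ranked 921. Transcripts without a match in the annotation held 66.0% to 72.1% of the summed FPKM per library and have no place in these ranks.

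The coefficient of variation over libraries was 9.70% for PVT1 and 5.51% for PCAT1. It had a median of 10.7% among the 591 genes within 2-fold of PVT1, and of 11.8% among the 1059 genes within 2-fold of PCAT1. Among those 591 genes 41.5% varied less than PVT1, and among those 1059 genes 6.42% varied less than PCAT1. The estimated 2473 fragments of PVT1 and 853 of PCAT1 per library would give a coefficient of variation of 2.01% and 3.42% from counting alone. PVT1 was lowest in replicate 4, while PCAT1 was highest in replicate 2.

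Within each library PVT1 was higher than PCAT1. The log2 ratio of PVT1 to PCAT1 was 1.43, 1.24, 1.47 and 1.21 in replicates 1 to 4. The mean of 1.34 ± 0.13 is a ratio of 2.53, with PVT1 higher in 4 of 4 libraries. The ratios of the libraries titled L (1.43 and 1.47) did not overlap those titled H (1.24 and 1.21), nor did the PVT1 levels (286 and 292 against 271 and 234 FPKM), while the PCAT1 levels did. The ratio contains the PVT1 level, so these are not separate observations. With so few libraries per letter, values unrelated to the letters often part in this way, and no share over all genes was taken. What the letters stand for is not given in the sources used here, and their part in this spread was not tested. The exact two-sided sign-flip permutation test gave p = 0.13, the smallest that 4 libraries allow. Taking only the highest transcript of each gene, PVT1-216 and PCAT1-208, the log2 ratio was 1.05 ± 0.18. Keeping only transcripts with an unchanged version number left 1 of 20 for PVT1, PVT1-212, and turned the ratio to -4.41.

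**Figure D1:**
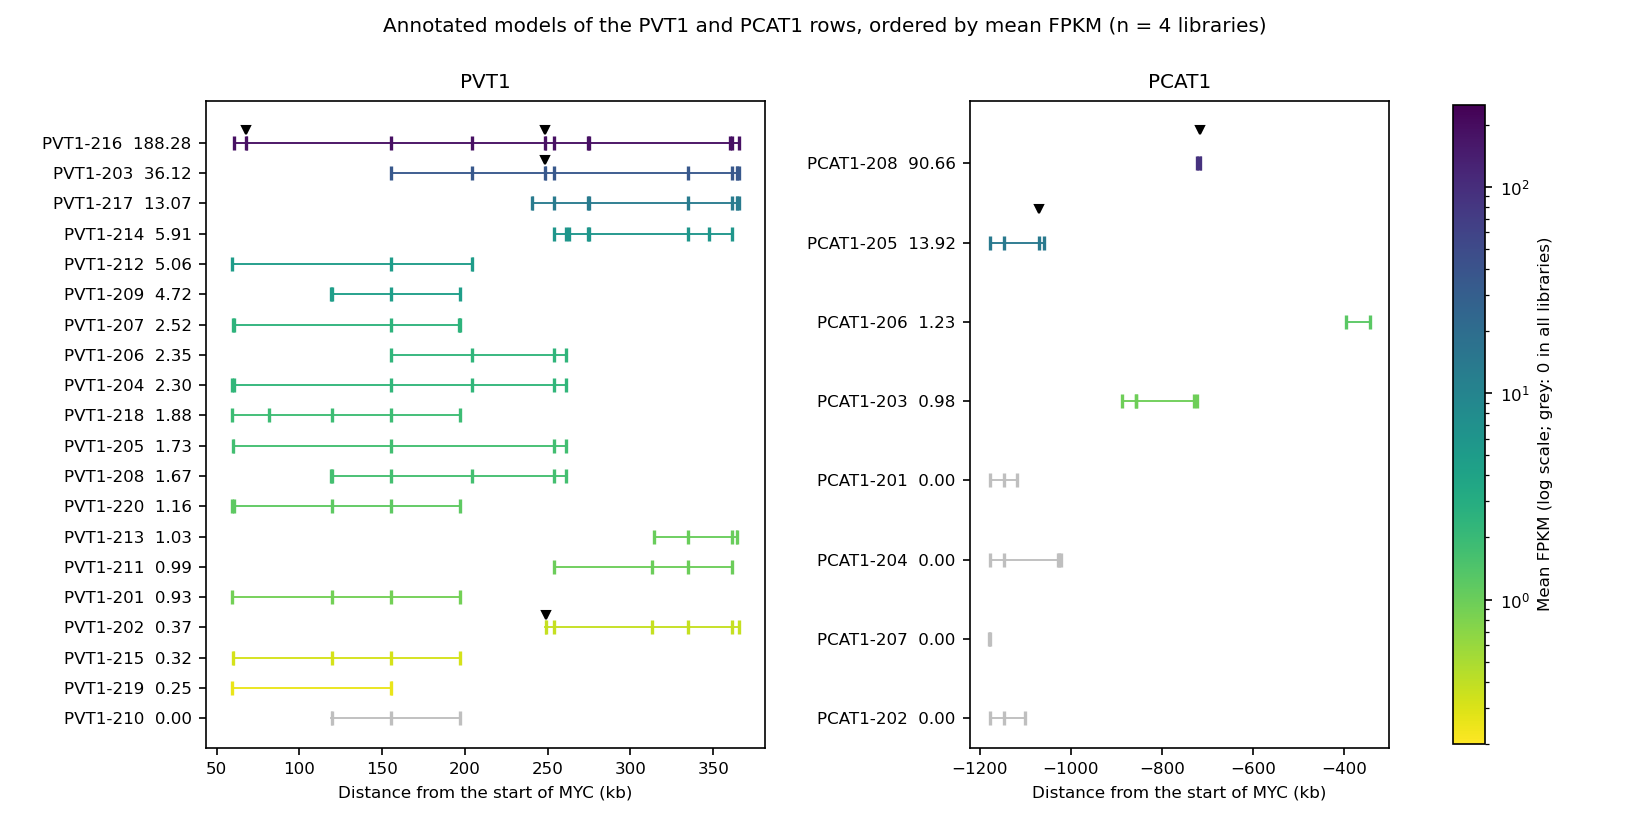
Annotated exons of the 20 PVT1 and 8 PCAT1 transcripts (vertical marks) joined by introns (lines), by distance from the start of MYC in kb, with the mean FPKM beside each name and as colour on a log scale. Triangles mark exons with at least 10% repeated sequence; they sit on PVT1-216, PVT1-203, PVT1-202, PCAT1-208 and PCAT1-205, and 5 transcripts at 0 are grey.

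Both genes drew most of their level from a single transcript. PVT1-216 (ENST00000523068, 11 exons and 2255 nt in the current model) had 198, 186, 207 and 161 FPKM in replicates 1 to 4. It held 69.5 ± 0.90% of the PVT1 level and was the leading transcript in 4 of 4 libraries. PCAT1-208 (ENST00000561978, 2 exons and 1992 nt) had 92.7, 99.8, 85.0 and 85.1 FPKM, or 84.8 ± 2.94% of the PCAT1 level, and led in 4 of 4 libraries as well. Counting transcripts by the evenness of their shares, PVT1 amounted to 1.98 equal isoforms and PCAT1 to 1.35.

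The next 2 PVT1 transcripts followed in the same order in every library. PVT1-203 (ENST00000513868, 8 exons) had 38.9, 35.8, 38.5 and 31.2 FPKM, a share of 13.3 ± 0.19%. In its current model, 1.13% of its 24-base words are found in no other PVT1 transcript. Its level therefore rests largely on an estimated split of shared reads. PVT1-217 (ENST00000523190) had 15.2, 15.6, 11.6 and 9.91 FPKM, a share of 4.82 ± 0.85%. The ranges of PVT1-216, PVT1-203 and PVT1-217 did not overlap. Below them, PVT1-214 had 5.44, 4.84, 7.61 and 5.76 FPKM, and PVT1-212 had 3.96, 7.31, 4.74 and 4.21 FPKM. PVT1-209 had 5.62, 6.56, 5.69 and 1.01 FPKM. These last 3 overlapped each other and 5 FPKM, and their order is within the spread.

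The other 14 PVT1 transcripts had means under 5 FPKM. There were 8 between 1 and 5 FPKM, from PVT1-213 (1.03 ± 0.56 FPKM) to PVT1-207 (2.52 ± 2.10 FPKM), 5 below 1 FPKM and PVT1-210, which was at 0 in all libraries. Between 1 and 3 libraries were at 0 for 9 PVT1 transcripts, and 10 were above 0 in all 4. PVT1-204, which shares its first exon region with PVT1-212, had 2.96, 2.26, 0 and 3.96 FPKM, or an estimated 14.8, 12.2, 0 and 22.2 fragments. It has no 24-base word that other PVT1 transcripts lack, so its value is an estimated split of reads that it shares with them. The median over the 20 transcripts was 1.80 FPKM, against 0.34 FPKM over all 19835 transcripts.

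PCAT1 was carried by PCAT1-208 and by a short transcript from another part of the gene. PCAT1-205 (ENST00000520512, 4 exons and 372 nt) had 12.2, 13.2, 15.8 and 14.6 FPKM, a share of 13.1 ± 1.91%. It was highest in replicate 3, where PCAT1-208 was lowest. PCAT1-206 had 0, 0.98, 3.0 and 0.94 FPKM, and PCAT1-203 had 1.37, 0.94, 1.29 and 0.30 FPKM. PCAT1-201, PCAT1-202, PCAT1-204 and PCAT1-207 were at 0 in all 4 libraries. The median over the 8 transcripts was 0.49 FPKM.

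**Figure D2:**
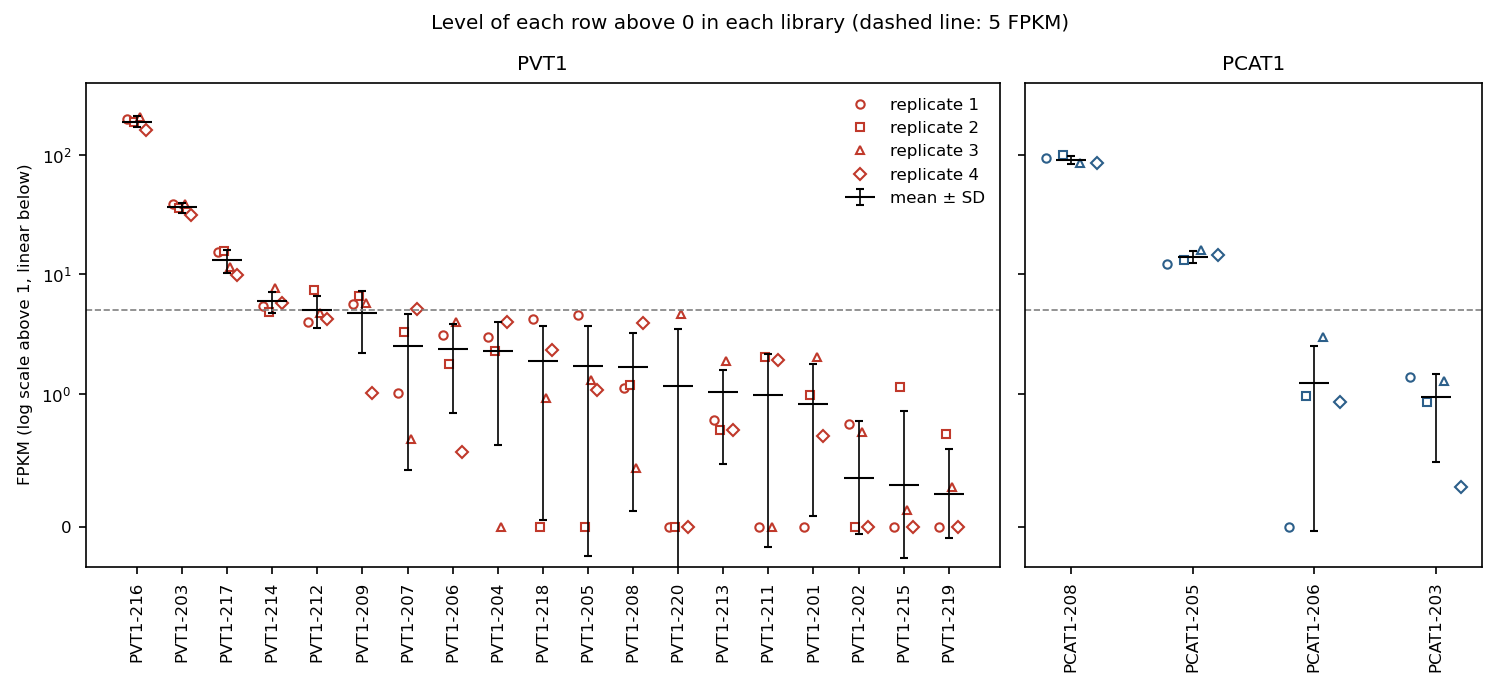
FPKM of each PVT1 (left) and PCAT1 (right) transcript above 0 in at least 1 library, on a scale that is logarithmic above 1 and linear below, with a symbol per replicate and the mean ± SD of 4 libraries in black. PVT1-216, PVT1-203, PVT1-217, PCAT1-208 and PCAT1-205 lie above the dashed line at 5 FPKM in every library.

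Of the 28 transcripts, 5 were called above 5 FPKM, 15 below it and 3 were not placed, and the 5 at 0 were not tested. Of all 11435 transcripts tested, 41.9% were called above and 43.3% below. In limma's test, with adjustment over all of them, the log2 difference from the threshold was 4.97 for PVT1-216 (SE 0.08, adjusted p = 1.93e-11) and 2.62 for PVT1-203 (SE 0.10, adjusted p = 8.2e-09). It was 1.21 for PVT1-217 (SE 0.16, adjusted p = 7.42e-05). PCAT1-208 lay 3.93 above the threshold (SE 0.08, adjusted p = 8.09e-11) and PCAT1-205 1.31 above it (SE 0.14, adjusted p = 1.53e-05). PVT1-214, PVT1-212 and PVT1-209 were not placed, with adjusted p between 0.391 and 0.942 in limma's test. Of the 15 below, PVT1-204, PVT1-206 and PVT1-207 lost the call when 1 of 2 libraries was left out, replicate 2 or 3 for PVT1-204, replicate 2 or 4 for PVT1-206 and replicate 1 or 3 for PVT1-207, with adjusted p between 0.0572 and 0.104 in limma's test.

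The shares of the leading transcripts were set beside those of 346 other genes with at least 5 transcripts and a mean of at least 5 FPKM. There the leading transcript held a median of 63.6% of its gene, with quartiles of 44.6% and 88.8%. Among these genes 56.6% had a leading share below that of PVT1 and 70.2% one below that of PCAT1, so neither share stood apart. The SD of the share over libraries had a median of 3.73 percentage points. Of these genes 13.6% had a smaller SD than PVT1 and 39.3% a smaller SD than PCAT1. The leading transcript was the same in 4 libraries in 276 of the 346.

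**Figure D3:**
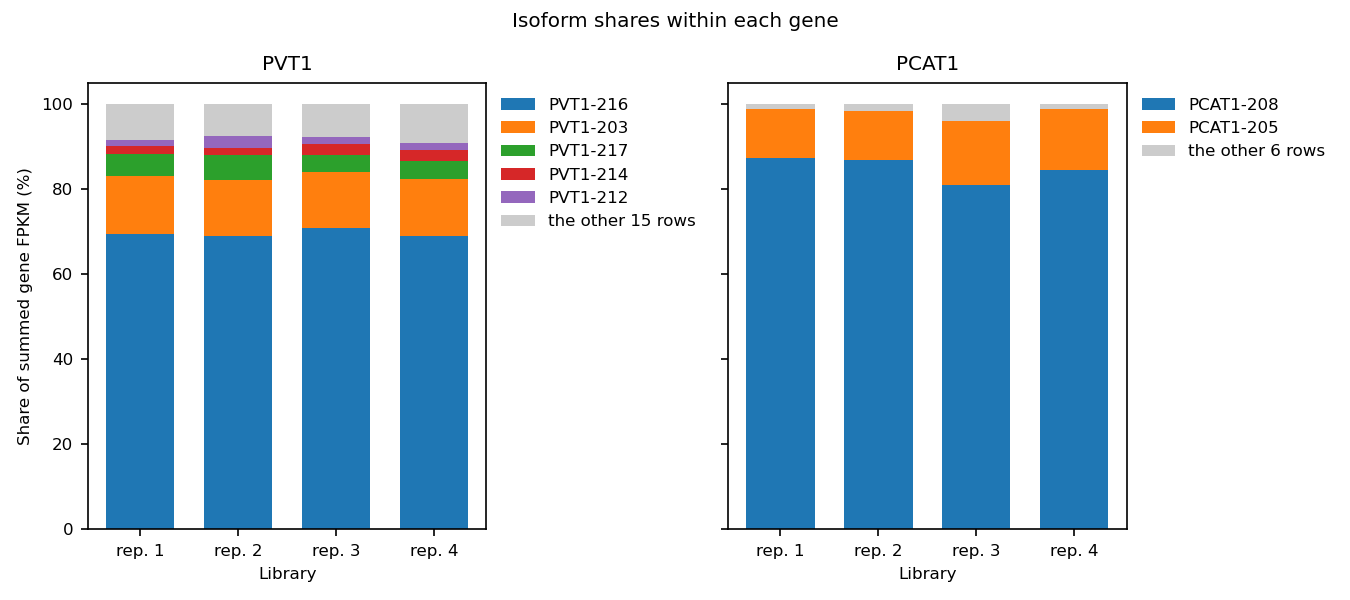
Share of each transcript in the summed FPKM of PVT1 (left) and PCAT1 (right) in each of the 4 libraries, as stacked bars in percent. PVT1-216 takes 68.9% to 70.8% of PVT1 and PCAT1-208 takes 80.9% to 87.3% of PCAT1.

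By position, most of the PVT1 level came from transcripts that reach the same 3′ end. Little came from those with the outermost annotated starts, though the leading transcript, PVT1-216, begins close to them, 60.6 kb from the start of MYC. Overlap of first exons put the 20 transcripts into 9 start groups. The 6 transcripts of the first group, which begin 59.1 kb downstream of the start of MYC and include PVT1-212, summed to 11.6 ± 0.74 FPKM, or 4.30 ± 0.38% of the gene. The group of PVT1-216, PVT1-205 and PVT1-215 summed to 190 ± 20.6 FPKM, or 70.3 ± 1.02%. PVT1-203 and PVT1-206, which begin in an exon 155 kb from MYC, made up 14.2 ± 0.52%. PVT1-216, PVT1-203, PVT1-217 and PVT1-202 end together 366 kb from the start of MYC and summed to 238 ± 25.2 FPKM, or 87.8 ± 0.86% of the gene. This grouping by 3′ end was chosen after the values were seen. With annotated first exons joined only if their starts lay within 100 nt, PVT1-216 stood alone with 69.5%.

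The 8 PCAT1 transcripts fell into 5 start groups, and lay between -1179 kb and -343 kb from the start of MYC. PCAT1-208 (chr8:128025399-128033259) formed a group of its own at -722 kb. PCAT1-205 (chr8:127570140-127688658) begins in the same region as PCAT1-201, PCAT1-202 and PCAT1-204, at the far end of the gene from MYC, and was the only one of those 4 above 0. PCAT1-206 is the nearest to MYC.

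Because the table was made by placing reads on transcripts, sequence shared with other loci bears on what these values measure. Repeated sequence was taken as 24-base words of the transcript found 10 or more times in GRCh37, counting both strands. It made up 17.5% of PVT1-216, 9.13% of PVT1-203 and 8.93% of PVT1-202, against under 1% of each of the other 17 PVT1 transcripts. In PCAT1 it made up 21.6% of PCAT1-208 and 10.6% of PCAT1-205, and 0 of the other 6. The highest transcripts of both genes were thus among those with repeated sequence, though PVT1-202 was at 0.37 ± 0.43 FPKM and PVT1-217, with 0.62% repeated sequence, at 13.1 FPKM. These percentages describe current models, which have the version that was measured for PCAT1-208 and PCAT1-205 but another one for PVT1-216, PVT1-203 and PVT1-202. The part of repeated sequence in the levels was not tested.

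The repeated sequence lay in few exons. A PVT1 exon of 410 nt (chr8:128815396-128815805) was 57.3% repeated and belonged to PVT1-216 only. An exon of 301 nt (chr8:128996150-128996450) was 47.2% repeated and was shared by PVT1-216 and PVT1-203. In PCAT1-208 the last exon (chr8:128031889-128033259, 1371 nt) was 31.6% repeated, while its first exon (chr8:128025399-128026019, 621 nt) held none. Of the 571 words that PVT1-216 shares with no other PVT1 transcript, 40.5% were repeated, against 17.5% of its whole sequence.

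The transcripts with at least 5% repeated sequence held 83.0 ± 0.98% of the PVT1 level and 97.9 ± 1.36% of the PCAT1 level. Without them PVT1 had 48.0, 48.4, 45.9 and 41.2 FPKM and was still above 5 FPKM (log2 difference 2.96, adjusted p = 4.48e-13 in limma's test). PCAT1 without them had 1.37, 1.92, 4.29 and 1.24 FPKM and was below 5 FPKM (log2 difference -0.996, SE 0.25, adjusted p = 0.00204 in limma's test). This alternative was chosen after the data were seen, and it takes away the PCAT1 call above 5 FPKM altogether. It removes whole transcripts, with their sequence that is not repeated. The low PCAT1 remainder follows from the 97.9% share removed, and the test adds nothing to it.

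**Figure D4:**
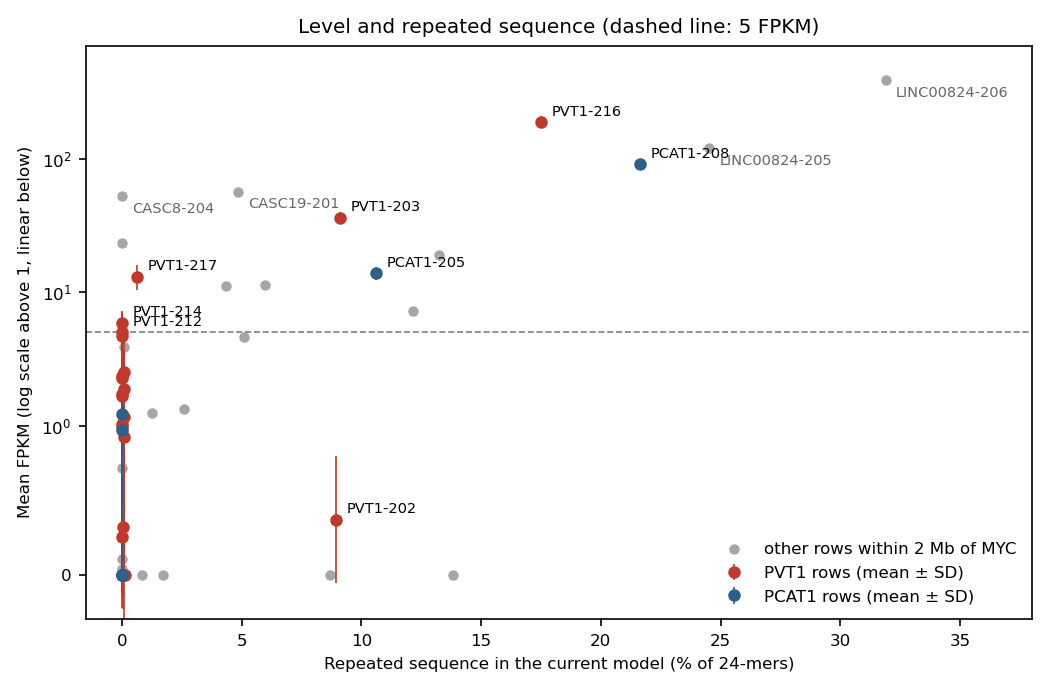
Mean FPKM of each transcript, on a scale logarithmic above 1 and linear below, against the percentage of its 24-base words that are repeated in the genome, for PVT1 (red) and PCAT1 (blue), with SD bars, and for the 33 other transcripts within 2 Mb of MYC (grey). PVT1-216 and PCAT1-208 lie at 17.5% and 21.6% repeated sequence, while CASC8-204 reached 52.5 FPKM with none.

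Some exons without repeated sequence were shared by many isoforms. An exon of 410 nt with no repeated words (chr8:128902835-128903244), known as the exon that forms the circular RNA of PVT1, belonged to 12 transcripts with a summed mean of 211 FPKM. An exon of 130 nt at chr8:129001408-129001537 belonged to 8 transcripts with a summed mean of 246 FPKM. The circular RNA has no entry of its own in the table, so no value is given for it.

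The annotation used here placed MIR1205 and MIR1207 inside measured PVT1 transcripts, in introns and in no exon. Any other microRNA of PVT1 was not assessed. MIR1205 (chr8:128972879-128972941) lay in introns of 6 transcripts summing to 232 ± 23.0 FPKM. MIR1207 (chr8:129061398-129061484) lay in introns of 6 transcripts summing to 245 ± 24.7 FPKM. PVT1-216 and PVT1-203 were the leading hosts of both.

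Exons of other genes overlapped some of the transcripts. PVT1-214, PVT1-216 and PVT1-217 each shared 256 nt with a processed pseudogene (ENSG00000278275) and 63 nt with RNU4-25P, a small nuclear RNA pseudogene, on the opposite strand. PCAT1-206 shared 155 nt on its own strand with POU5F1B, a retrogene of the pluripotency factor POU5F1, and PCAT1-207 shared 1355 nt on the opposite strand with LRATD2. The libraries were strand-specific, but how strand entered the alignment is not given in the sources used here, and reads of these pairs cannot be told apart. PCAT1-207 was at 0 and PCAT1-206 at 1.23 ± 1.26 FPKM.

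Around MYC, PVT1 and PCAT1 were part of a window in which several lncRNA genes were expressed. Within 2 Mb of the start of MYC, PVT1 took 25.2 ± 2.27% of the summed non-coding FPKM and PCAT1 9.94 ± 0.41%. The window held 33 other transcripts in 14 genes, of which 6 genes were called above 5 FPKM, 1 below, 1 was not placed and 6 were at 0. The 6 at 0 were not tested, so 6 of 8 tested genes of the window were above. Among all genes tested, 50.3% were above and 38.5% below. The median of these 14 genes was 2.99 FPKM, against 0.74 FPKM over all 11465 genes. LINC00824, on the opposite strand beyond PVT1, had 457, 586, 534 and 517 FPKM and exceeded PVT1 in every library. Its leading transcript, LINC00824-206, was 31.9% repeated.

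CASC19 and CASC8, cancer susceptibility lncRNAs between PCAT1-208 and MYC, were lower than PCAT1. CASC19 had 82.3, 88.0, 88.0 and 66.4 FPKM, and CASC8 had 56.0, 56.5, 55.9 and 58.1 FPKM. Neither range overlapped that of PCAT1 or the other. CASC11, which begins next to MYC on the opposite strand, had 7.95 ± 1.37 FPKM and was called above 5 FPKM (log2 difference 0.56, adjusted p = 0.00851 in limma's test), a call lost without replicate 3 (0.47, adjusted p = 0.0608). LINC00861 (11.1 ± 1.12 FPKM) and ENSG00000244791 (11.3 ± 3.33 FPKM) were the other 2 genes above the threshold, and CCDC26 (4.64 ± 0.85 FPKM) was not placed. Repeated sequence made up 12.2% of the leading transcript of CASC11 and 5.96% of that of ENSG00000244791. It made up 4.83% for CASC19, 4.34% for LINC00861 and 0 for CASC8.

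**Figure D5:**
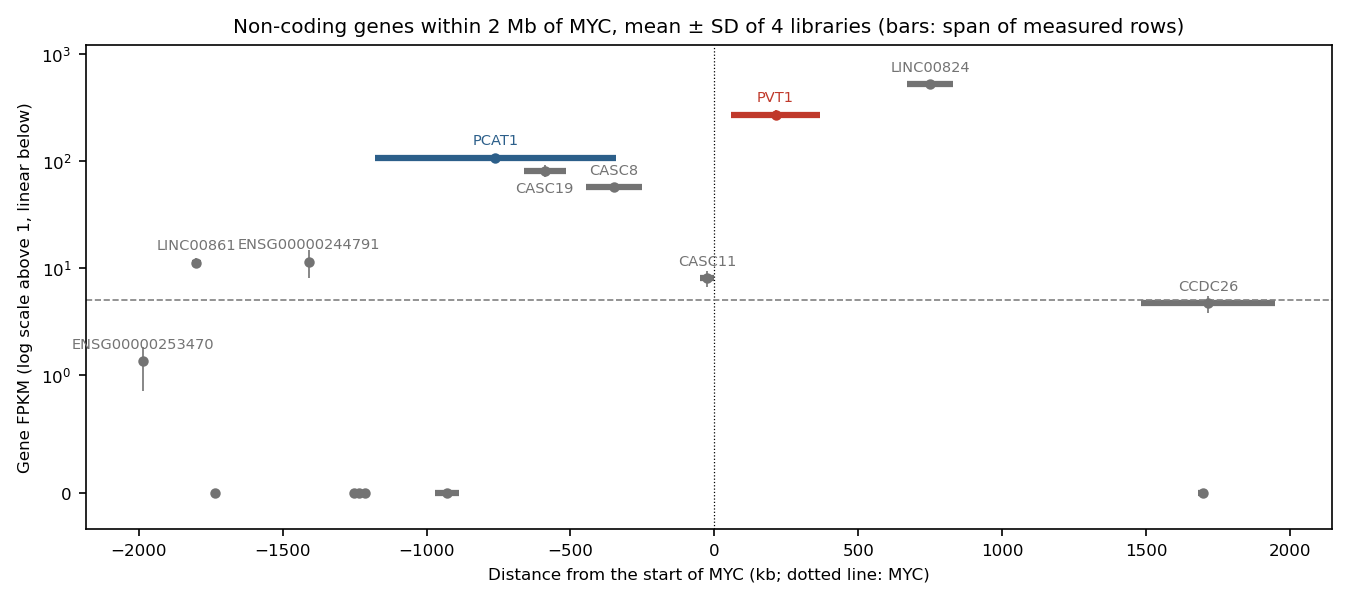
Gene FPKM (mean ± SD of 4 libraries, scale logarithmic above 1 and linear below) of PVT1 (red), PCAT1 (blue) and 14 other non-coding genes (grey) by distance from the start of MYC in kb, with thick bars for the span of the measured transcripts. PVT1 at 271 FPKM and PCAT1 at 107 FPKM follow LINC00824 at 524 FPKM, and 6 genes are at 0.

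Lists of related lncRNAs place the levels of both genes. Of all genes tested, 50.3% were above 5 FPKM in limma's test. The median was 0.74 FPKM over all 11465 genes and 7.61 FPKM over the 7124 tested. Of 15 lncRNAs listed for the 8q24 region, 6 were measured, with a median of 33.9 FPKM. All 6 lie in the window around MYC and were counted there too. Of these, 5 were above 5 FPKM (CASC8, CASC11, CASC19, LINC00824 and LINC00861) and CCDC26 was not placed. Of 13 other lncRNAs known from prostate cancer, 6 were measured, with a median of 32.5 FPKM. PCAT7 (155 ± 9.26 FPKM), PCAT18 (90.2 ± 9.31 FPKM) and PCAT4 (62.0 ± 10.5 FPKM) were above 5 FPKM. PCA3 (3.01 ± 0.95 FPKM), a urine marker of prostate cancer, and PCAT6 (0.31 ± 0.42 FPKM) were below it, and PCGEM1 was at 0.

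Of 10 lncRNAs elsewhere in the genome that are linked to MYC or its relatives, 9 were measured, with a median of 5.93 FPKM. Of these 9, 4 were above 5 FPKM, and of all genes tested 50.3% were. DANCR (3882 ± 322 FPKM) and GAS5 (3584 ± 234 FPKM), both hosts of small nucleolar RNAs, were above 5 FPKM. MIR17HG (163 ± 18.2 FPKM), host of a microRNA cluster that MYC activates, and MINCR (78.3 ± 13.4 FPKM), a MYC-induced lncRNA, were also above it. MYCNUT (0.17 ± 0.11 FPKM) and MYCBP2-AS1 (0.43 ± 0.85 FPKM) were below it. EPIC1 (4.98 ± 1.30 FPKM), MYCNOS (3.83 ± 1.61 FPKM) and H19 (5.93 ± 2.38 FPKM) were not placed. By mean level, PVT1 stood above MIR17HG and below DANCR and GAS5, while PCAT1 lay between MINCR and MIR17HG.

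The genes closest to each by level over the 4 libraries were found by the root-mean-square difference of log2(FPKM + 1). For PVT1 they were LINC00970 (0.07), LRIG2-DT (0.08) and a non-coding transcript of TVP23C (0.08). For PCAT1 they were SCAMP1-AS1 (0.04), non-coding transcripts of RECQL4 (0.04) and LINC02043 (0.05). LINC00970, LRIG2-DT and TVP23C were lowest in replicate 4, as PVT1 was. With 7124 genes and 4 libraries such closeness describes level only.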

How the data were processed

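The non-coding transcript levels of 4 HUH7 libraries were analysed. The authors removed ribosomal RNA (the labels name the molecule as polyA RNA), aligned reads with Bowtie 1.01 to Ensembl 68 non-coding transcripts on hg19 and summarised them with RSEM 1.2.3, per the methods and processing notes. The deposited FPKM have no counts, and RSEM divides reads shared by isoforms by estimation. Of 19835 identifiers, 18373 matched GENCODE release 44 on GRCh37, 11445 with the same version. Of the members, 1 of 20 PVT1 and 2 of 8 PCAT1 transcripts had the same version, PCAT1-208 and PCAT1-205 among them, so lengths, exons and repeats of the others refer to newer models.

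The 11435 transcripts and 7124 genes averaging 0.1 FPKM or more were compared with 5 FPKM on the log2(FPKM + 1) scale in limma 3.58.1 (one-sample, trend, two-sided, Benjamini-Hochberg, threshold 0.05, R 4.3.3), an approach checked on simulated data. Log2 differences understate those of low transcripts. Fragments were estimated from FPKM times length minus 80 nt; 64.9% to 66.9% of low values came within 0.05 of a whole fragment, so no count test was run. Other steps used pandas 2.3.3 and NumPy 2.4.6.

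The members and lists were chosen with earlier results of these data known. All transcripts of both genes, genes of at least 5 FPKM within 2 Mb of MYC, measured list genes and the 3 nearest genes by level are named. Alternatives changed the pseudocount, filter, threshold, scaling, transcripts summed, window and libraries.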

Additional observations from a re-analysis of the deposited data

Results flagged for a closer look

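In a check of 38 transcript levels, gene levels, shares and the ratio, 4 PVT1 transcripts had a library apart from the other 3 by Dixon's criterion (the gap to the nearest library divided by the range). Chance meets this criterion in about 1 of 20 groups of independent, normally distributed values. Values at 0 and splits of shared reads are not of that kind, so the rate need not hold here. With 3 libraries at 0, the gap over range is 1.0 whatever the remaining value. PVT1-220 had 0, 0, 4.64 and 0 FPKM in replicates 1 to 4 (gap over range 1.0). PVT1-213 had 0.80, 0.73, 1.87 and 0.73 FPKM (0.939), again highest in replicate 3. PVT1-215 had 0, 1.14, 0.13 and 0 FPKM (0.886), and PVT1-209 had 5.62, 6.56, 5.69 and 1.01 FPKM (0.831), low in replicate 4. Their means lay between 0.32 and 4.72 FPKM. Of their 24-base words, 0% for PVT1-220 and PVT1-209, 0.63% for PVT1-215 and 60.8% for PVT1-213 are found in no other PVT1 transcript, and the values of the first 3 are splits of shared reads estimated by RSEM.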

How the results depend on the processing

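Of the alternatives for the gene levels, counts, ratio and shares, 85 kept the result, 12 moved it and 3 reversed it. Kept means on its side of the threshold, within 1 SD for values with no usable test, or within 1.5 times for counts. Some of the 85 could not come out otherwise, so their number does not measure robustness. Leaving out 1 of 4 libraries cannot move a mean by 1 SD. A threshold of 1 FPKM only puts genes above 5 FPKM further above it. With transcripts of the same version only, PVT1 was at the threshold (log2 difference -0.018, adjusted p = 0.939 in limma's test) and the log2 ratio of PVT1 to PCAT1 was -4.41, because 1 of 20 PVT1 transcripts was kept; PVT1-216 then had no value. Without transcripts with at least 5% repeated sequence (chosen after seeing the data) PCAT1 was at -0.996 and the ratio at 4.57. The ratio was 1.05 for the highest transcripts, 1.54 for estimated fragments and 1.58 for PCAT1-208 alone against the PVT1 sum (the last chosen after seeing the data). The planned removal of transcripts with at least 25% repeated sequence removed none. As shares of estimated fragments, PVT1-216 held 78.9%, PCAT1-208 97.1% and their start groups 79.4% and 97.1%. With a threshold of 1 FPKM, 8 transcripts were above and 3 below, and PVT1-204 (0.50), PVT1-205 (0.18), PVT1-206 (0.61), PVT1-207 (0.61), PVT1-208 (0.26), PVT1-209 (1.35), PVT1-212 (1.57) and PVT1-218 (0.28) changed sign. With 10 FPKM, PVT1-214 was at -0.69 and 3 neighbouring genes were above, and a window of 1 Mb held 4 of the 6 above 5 FPKM. A filter at a mean of 1 FPKM left 9 transcripts below.

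Over single transcripts, 177 alternatives kept the call, 11 lost it, 3 gained one and 12 changed sign. Here too some were fixed, as a lower threshold favours calls above and a higher one calls below. Leaving out each replicate gave 5 transcripts above and 11 to 14 below, 5 to 6 neighbouring genes above and a ratio of 1.29 to 1.38. PVT1-212 lay between -0.181 and 0.0674, positive without replicate 1 or without replicate 4 (0.0438), and PVT1-209 between -0.426 and 0.211, positive without replicate 4, all 3 positive values within their SE. No paired analysis was possible because the 4 replicate numbers are all different and the letters L and H in the titles were not analysed as a variable per the submitters. Isoform levels rest on RSEM's division of shared reads. PVT1-203, with 1.13% of its 24-base words its own, had a coefficient of variation of 9.82% over libraries. Other transcripts with little or no sequence of their own, such as PVT1-220 (0, 0, 22.7 and 0 estimated fragments), PVT1-205 (29.1, 0, 8.81 and 7.78) and PVT1-204, varied widely between libraries. What set their zeros was not tested.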
